A study of Mus musculus with 14 samples.

Results

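The 10 genes described here encode proteins that make lipid droplets, enlarge them by fusion or act on their surface. They are the CIDE family (Cidea, Cideb and Cidec), the fat storage-inducing transmembrane proteins (Fitm1 and Fitm2), seipin (Bscl2), Hilpda, the small GTPase Rab18, the hydrolase Ldah and Aup1. They were chosen by gene symbol for these roles, and all 10 were found by Ensembl identifier among the 55471 genes counted. A filter on low counts kept 15949 genes for testing, among them 9 of the 10, and left out Fitm1.

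RNA was sequenced from the brown fat of male mice aged 10 weeks, with or without CLSTN3B, a product of the Clstn3 locus, in their adipocytes. All mice had first spent 2 weeks at 30 °C, which is thermoneutral for a mouse. The groups were AdC3KO (the adipocyte-specific knockout) after 6 h at 4 °C with 4 libraries, WT after 6 h at 4 °C with 4, AdC3KO kept at 30 °C with 3 and WT kept at 30 °C with 3. The driver that limits the deletion to adipocytes is not given in the sources used here. Whether each library came from its own animal is not stated either, so p-values measure only how far these libraries spread, which may be technical.

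Lipid droplets are stores of triglyceride that bud from the endoplasmic reticulum (ER) and are covered by a single layer of phospholipid. Seipin marks the sites where a droplet begins and holds it to the ER, and FIT proteins in the ER membrane are needed for the droplet to emerge. CIDE proteins gather where droplets touch and move triglyceride from the smaller droplet to the larger one. In brown adipocytes, Cidea is abundant and fat is kept in many small droplets, which cold exposure mobilises to fuel heat production. CLSTN3B is an ER protein of adipocytes that has been linked to keeping these droplets small, and the CIDE genes are read here in its knockout.

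Each library held 19.9 M to 29.0 M counts on genes, where M is the M of CPM, counts per M library counts. The targeted gene followed the labels, with Clstn3 at 53.8 to 77.9 CPM (scaled by the TMM factors of edgeR) in AdC3KO libraries against 970.05 to 1195 CPM in WT libraries at 4 °C, and at 14.8 to 17.3 CPM in AdC3KO libraries against 182 to 228 CPM in WT libraries at 30 °C. All 10 markers of brown adipocytes were detected, and Ucp1, the uncoupling protein of brown fat, lay between 1382 and 15736 CPM. Transcripts of skeletal muscle, a neighbour of this fat depot, summed to 529 CPM in AdC3KO 4 °C library 3, 59.01 CPM in WT 4 °C library 2, 90.7 and 46.9 CPM in AdC3KO 30 °C libraries 1 and 2 and 237 CPM in WT 30 °C library 3. In the other 9 libraries the same 15 genes summed to between 4.56 and 14.9 CPM. TMM factors were 0.822 to 0.954 at 4 °C and 1.107 to 1.213 at 30 °C, so the scale on which the temperatures are compared depends on them.

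The members differed widely in how much RNA the tissue held. Per kilobase of exon (CPM per kb), Cidea averaged 1407 ± 145 in AdC3KO and 1353 ± 157 in WT at 4 °C (SD, n = 4 each), and 1753 ± 377 in AdC3KO and 1759 ± 159 in WT at 30 °C (SD, n = 3 each). Among 15937 genes it ranked 23 in AdC3KO and 22 in WT at 4 °C, and 16 in AdC3KO and 15 in WT at 30 °C. Cidec, the CIDE protein best known from the single large droplet of white adipocytes, came next at 352 ± 40.8 in AdC3KO and 440.1 ± 153 CPM per kb in WT at 4 °C, and at 332 ± 24.003 in AdC3KO and 317 ± 32.5 CPM per kb in WT at 30 °C. Fitm2 followed in every group, at 130.0 ± 12.8 in AdC3KO and 130.3 ± 10.5 CPM per kb in WT at 4 °C, and at 42.2 ± 7.39 in AdC3KO and 38.6 ± 8.36 CPM per kb in WT at 30 °C. No library of any group put these 3 genes in another order.

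Below them the order depended on the temperature. At 4 °C, Hilpda (22.2 CPM per kb in AdC3KO and 23.1 in WT), Bscl2 (22.2 in AdC3KO and 21.8 in WT) and Rab18 (20.5 in AdC3KO and 21.4 in WT) overlapped their neighbours in the order, and Aup1 followed at 17.3 CPM per kb in AdC3KO and 16.9 in WT. At 30 °C, Bscl2 (16.8 CPM per kb in AdC3KO and 16.9 in WT) overlapped Aup1 (14.8 in AdC3KO and 14.6 in WT). Rab18 (12.7 in AdC3KO and 11.9 in WT) came next, and Hilpda stood at 6.57 CPM per kb in AdC3KO and 7.04 in WT, where in AdC3KO it overlapped Ldah (5.05). Cideb, which in liver loads lipid onto lipoproteins, had a mean of 0.834 to 1.19 CPM per kb in the 4 groups, below the median of all tested genes (2.23 to 2.43). The order also depended on the length used. Divided by the mean length of the coding transcripts instead of all exons, the first 3 and last 2 places at 4 °C were the same. Hilpda moved to place 7 there. At 30 °C, Bscl2 then took place 3 and Fitm2 place 4 in both genotypes. Bscl2 had 58.2 in AdC3KO and 58.4 in WT per kb of coding transcript, against 42.2 and 38.6 for Fitm2.

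**Figure D1:**
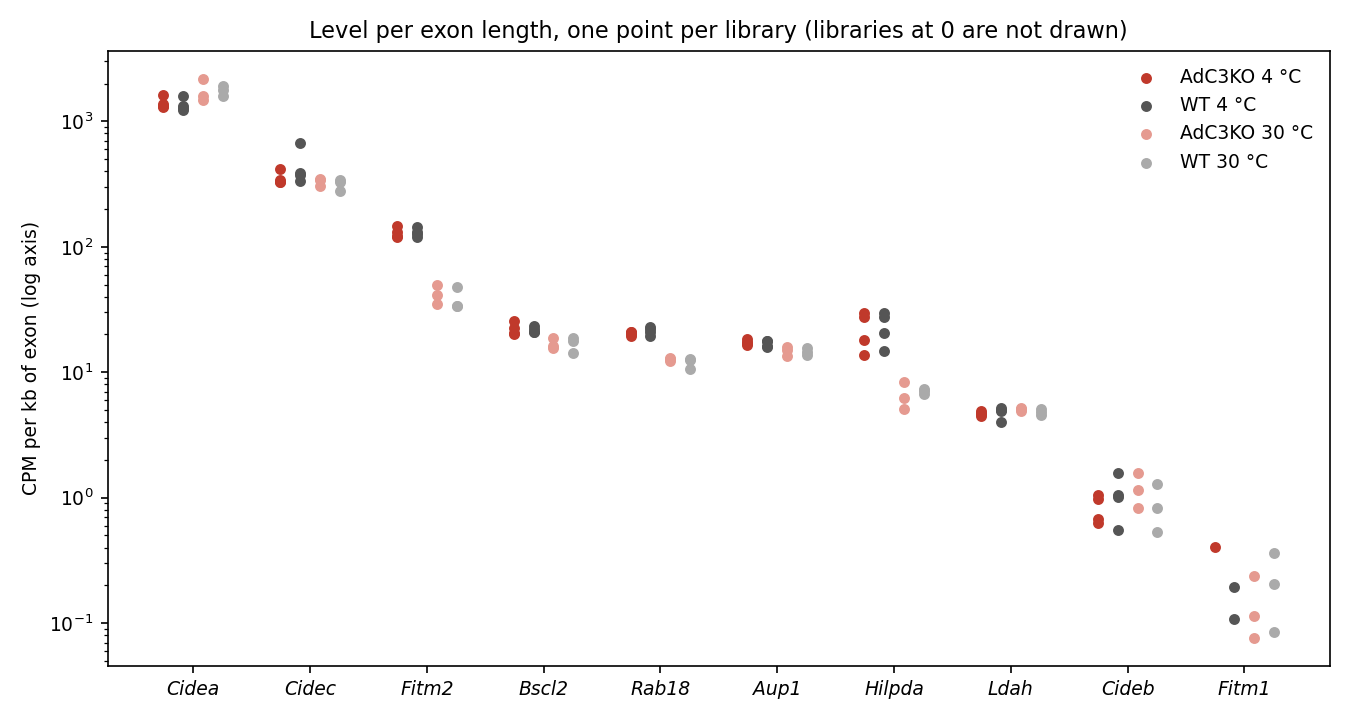
Level of each of the 10 genes in CPM per kb of exon on a log axis, one point per library, coloured by group. Cidea, Cidec and Fitm2 lie above the other 7 genes in every group, and Cideb and Fitm1 lie lowest, with 5 libraries of Fitm1 at 0 and not drawn.

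Cold changed several of these genes, and more of them were higher than lower. In AdC3KO, 5 of the 9 tested members were higher at 4 °C than at 30 °C and 0 were lower (adjusted p below 0.05, edgeR quasi-likelihood test). In WT, 6 were higher and 1 was lower. Over all tested genes, 63% were called in AdC3KO (31% higher, 32.1% lower) and 61.4% in WT (30.6% higher, 30.8% lower), and the 5 of 9 and 7 of 9 members called lie near that background. The median log2 fold change of the 9 members was 0.22 in AdC3KO and 0.37 in WT, beside −0.06 in AdC3KO and −0.03 in WT over all tested genes. The libraries of both temperatures did not overlap for 5 members in AdC3KO and 6 in WT, against 64.1% of all tested genes in AdC3KO and 60.3% in WT. Without the 5 libraries with muscle transcripts, 4 members were called in AdC3KO, where 30 °C then kept 1 library assumed to vary like the others, and 5 in WT. Without WT 30 °C library 1 the WT count was 3. In whole tissue, fewer cells of a type and less RNA per cell cannot be told apart.

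**Figure D2:**
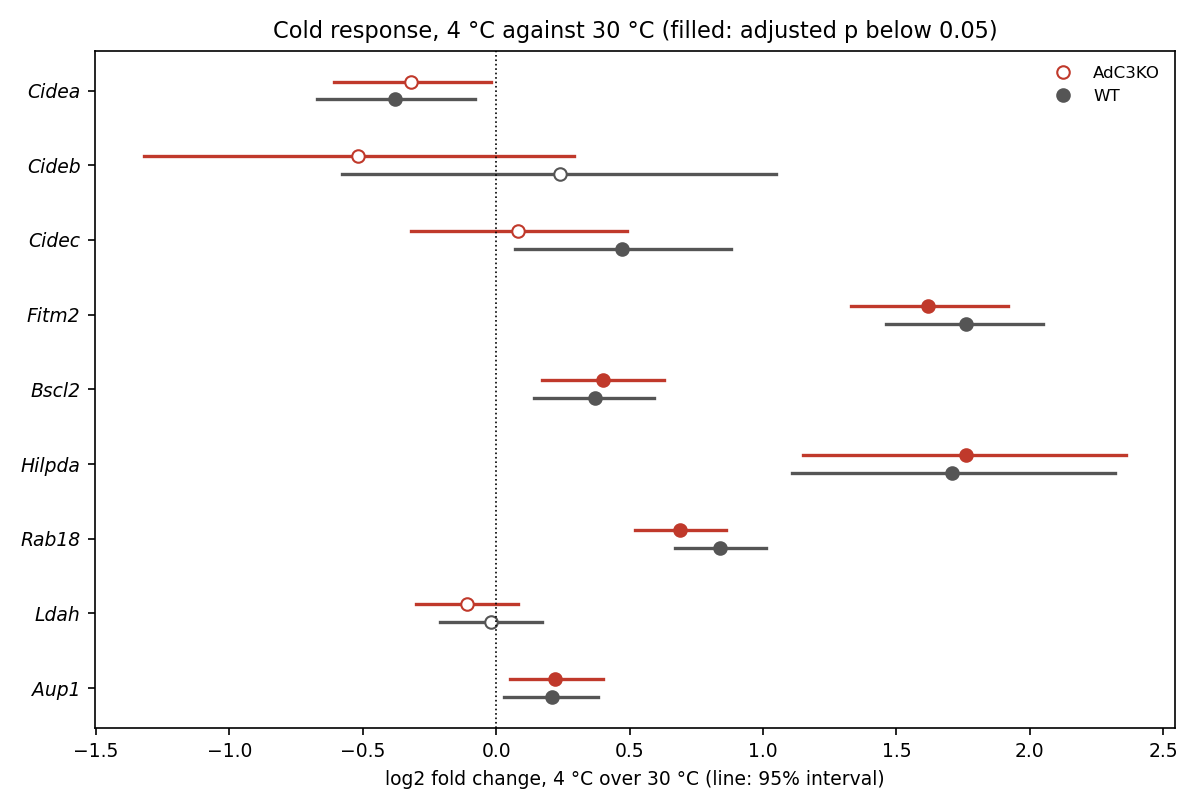
Log2 fold change at 4 °C over 30 °C for the 9 tested genes, with AdC3KO above WT in each row, the 95% interval as a line and filled points for an adjusted p below 0.05. Fitm2 and Hilpda lie furthest to the right in both genotypes, Fitm2 at 1.62 in AdC3KO and 1.76 in WT, Hilpda at 1.76 in AdC3KO and 1.71 in WT.

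Fitm2, an ER enzyme that cleaves acyl-CoA and is needed for droplets to bud, ranked after Cidea and Cidec in level and rose about as much as Hilpda. At 4 °C it had 487, 519, 586 and 472 CPM in AdC3KO libraries 1 to 4, against 198, 164 and 139.9 CPM in AdC3KO libraries at 30 °C. The WT libraries had 572, 524, 497 and 475 CPM at 4 °C, against 133, 135 and 191 CPM at 30 °C. Every cold library lay far above every 30 °C library, and the spread within a temperature was small beside the gap. The log2 fold change was 1.62 in AdC3KO (SE 0.14, adjusted p = 8.84e-08, 3.08-fold) and 1.76 in WT (SE 0.14, adjusted p = 4.25e-08, 3.38-fold) by the same edgeR test. It passed under all 22 alternatives in both genotypes. The gene lies at chr2:163466379-163472629 on the minus strand (GRCm38), and 5.722% of its exon bases are shared with an antisense transcript. Fitm1 (chr14:55575617-55576954, plus strand), the family member known from skeletal muscle, could not be followed in this tissue. Its counts were 0, 0, 8 and 0 in AdC3KO and 0, 2, 4 and 0 in WT at 4 °C, and 7, 2 and 3 in AdC3KO and 2, 5 and 10 in WT at 30 °C. A count of 0 allows up to 3 counts in such a library, for counting error only. The highest Fitm1 count of AdC3KO at each temperature and of WT at 30 °C fell in the library of that group with the highest sum of muscle transcripts, and in WT at 4 °C it did not; the part of muscle in these counts was not tested. Fitted without the filter by edgeR or with DESeq2, Fitm1 had adjusted p-values of 0.334 to 1 over the 5 comparisons.

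Bscl2 (chr19:8837467-8848683, plus strand) encodes seipin, the ring-shaped ER protein whose loss causes severe lipodystrophy. It had 119.9, 132, 151 and 121 CPM in AdC3KO at 4 °C, against 91.6, 110.1 and 96.2 CPM in AdC3KO at 30 °C. In WT it had 122, 124, 137 and 129.8 CPM at 4 °C, against 84.0, 105 and 109.8 CPM at 30 °C. In CPM the cold libraries were all higher without overlap in either genotype, by a small margin. As a share of all gene counts, without TMM factors, the temperatures overlapped in both genotypes. The shares in AdC3KO were 0.0110% to 0.0124% at 4 °C and 0.0106% to 0.0132% at 30 °C. In WT they were 0.0102% to 0.0125% at 4 °C and 0.0102% to 0.0128% at 30 °C. Bscl2 rose 1.32-fold in AdC3KO (log2 0.40, SE 0.11, adjusted p = 0.00425) and 1.29-fold in WT (log2 0.37, SE 0.11, adjusted p = 0.00792), in the edgeR fit. Under upper-quartile scaling the call was lost in both genotypes (0.16 in AdC3KO, adjusted p = 0.184, and 0.12 in WT, adjusted p = 0.322), and it was also lost in WT without WT 30 °C library 1 (0.26, adjusted p = 0.0576) and in AdC3KO without the libraries with muscle transcripts (0.36, adjusted p = 0.0799). Of the Bscl2 exon bases, 6.749% are shared with Gng3 on the other strand, which had at most 0.628 CPM in any library.

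Hilpda (chr6:29272488-29275446, plus strand) encodes a small droplet protein that inhibits the lipase Pnpla2 (ATGL) and that is known to be induced by low oxygen and by fatty acids. It had 32.9, 19.8, 30.2 and 15.1 CPM in AdC3KO at 4 °C, against 5.66, 6.92 and 9.15 CPM in AdC3KO at 30 °C. In WT it had 32.6, 16.4, 22.6 and 30.3 CPM at 4 °C, against 8.16, 7.78 and 7.35 CPM at 30 °C. All 8 cold libraries were above all 6 libraries at 30 °C, but the lowest cold library of each genotype, at 15.1 CPM in AdC3KO and 16.4 CPM in WT, lay nearer to 30 °C than to the highest cold library. Hilpda rose 3.38-fold in AdC3KO (log2 1.76, SE 0.28, adjusted p = 0.00013) and 3.28-fold in WT (log2 1.71, SE 0.28, adjusted p = 0.000171, edgeR). Like Fitm2 it passed under all 22 alternatives, and its coefficient of variation was 34.5% in AdC3KO and 29.2% in WT at 4 °C, against 24.4% in AdC3KO and 5.18% in WT at 30 °C.

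The sequences ahead of the transcription start show what the members with the largest rise do and do not share. The 250 bases before the RefSeq start (GRCm38.p6) are printed for Fitm2 (chr2:163472630-163472879, minus strand) and Hilpda (chr6:29272238-29272487, plus strand), and for Ldah (chr12:8207876-8208125, plus strand), a member with no called change that carries the full cAMP response element. Capitals mark a match to the element or its core, 5′ to 3′ on the strand of the gene. Lower case is all other sequence, matches to other motifs included.
Fitm2: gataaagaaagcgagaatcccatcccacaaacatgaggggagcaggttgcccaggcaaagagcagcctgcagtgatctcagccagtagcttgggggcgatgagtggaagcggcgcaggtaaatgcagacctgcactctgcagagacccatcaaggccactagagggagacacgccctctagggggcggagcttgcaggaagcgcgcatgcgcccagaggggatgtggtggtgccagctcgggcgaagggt
Hilpda: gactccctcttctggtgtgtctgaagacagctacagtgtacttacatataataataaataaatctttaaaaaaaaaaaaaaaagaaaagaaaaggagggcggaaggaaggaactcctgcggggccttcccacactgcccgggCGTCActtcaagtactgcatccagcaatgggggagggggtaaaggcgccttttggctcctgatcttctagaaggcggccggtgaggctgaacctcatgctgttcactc
Ldah: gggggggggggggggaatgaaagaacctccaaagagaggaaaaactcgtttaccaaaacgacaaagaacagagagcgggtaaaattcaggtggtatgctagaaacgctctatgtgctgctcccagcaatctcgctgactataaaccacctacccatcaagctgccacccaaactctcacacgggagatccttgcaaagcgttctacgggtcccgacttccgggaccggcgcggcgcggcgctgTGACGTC
Of the 10 members, 7 were in the RefSeq table (not Cidea, Rab18 or Aup1). A total of 9 motifs were searched on both strands from each start, in 32817 promoters. The cAMP response element TGACGTCA was in 1.65% of all promoters and its core TGACG, which lies inside it, in 18.3%. The core of the hypoxia response element (ACGTG) was in 16.9%, the AP-1 site (TGANTCA) in 6.94%, the estrogen-related receptor element (TCAAGGTCA) in 0.39% and the PPAR element, a direct repeat of AGGTCA spaced by 1 base, in 0.0335%. A GC box (GGGGCGGGG) was in 10.7%, a CCAAT box (CCAAT) in 34.1% and a TATA box (TATAAA) in 12.5%. The Fitm2 window held none of the 9. The first Hilpda start had the core alone, on the other strand, 108 bases before the start, and its second annotated start had the core 246 and 68 bases before, an AP-1 match at 128 bases and the hypoxia core at 43 bases. In Ldah the full element begins 7 bases before the first start and ends on the start itself, so its last base is not printed. That window also had a TATA match at 112 bases. The second Ldah start had the full element at 74 bases, a CCAAT match at 10 and a TATA match at 179. Other matches were an AP-1 site at the second Cidec start and the core in Fitm1. Cideb had a TATA match and the first Bscl2 start CCAAT matches. A match to a motif is a description of these letters and not of a bound factor.

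Among the CIDE genes, the called changes were small and, in WT, of opposite sign for Cidea and Cidec. Cidea (chr18:67343604-67367785, plus strand) had 1455, 1539, 1805 and 1477 CPM in AdC3KO at 4 °C, against 1656, 1773 and 2436 CPM in AdC3KO at 30 °C. It had 1763, 1368, 1474 and 1428 CPM in WT at 4 °C, against 1977, 2129 and 1776 CPM in WT at 30 °C. In WT all cold libraries were lower in CPM, the closest pair being 1763 and 1776 CPM. In AdC3KO the temperatures overlapped in CPM through cold library 3. As a share of all gene counts, without TMM factors, every cold library was below those at 30 °C in both genotypes. The Cidea shares in AdC3KO were 0.134% to 0.148% at 4 °C and 0.192% to 0.271% at 30 °C. In WT they were 0.129% to 0.147% at 4 °C and 0.207% to 0.240% at 30 °C. Cidea fell in WT (log2 −0.38, SE 0.14, adjusted p = 0.0264) and missed the threshold in AdC3KO (−0.32, SE 0.14, adjusted p = 0.0567, edgeR). The WT call was lost with a term for the replicate number (adjusted p = 0.0581) and without WT 30 °C library 1 or 2 or WT 4 °C library 2, 3 or 4 (−0.37 to −0.31, adjusted p = 0.0563 to 0.109). The AdC3KO value was −0.55 under upper-quartile scaling (adjusted p = 0.00262), where the median of all tested genes was −0.29. It passed in 7 of 22 alternatives and depended on AdC3KO 30 °C library 3, the highest at 2436 CPM. Without that library it was −0.13 (adjusted p = 0.423), and it was −0.71 (adjusted p = 0.0041) without the libraries with muscle transcripts, where library 3 was the only AdC3KO library left at 30 °C.

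Cidec (chr6:113424634-113435760, minus strand), which enlarges droplets together with Plin1, was set apart by 1 library. It had 608, 627, 767 and 614 CPM in AdC3KO at 4 °C, against 566, 636 and 648 CPM in AdC3KO at 30 °C. In WT it had 1239.8, 713, 693 and 622 CPM at 4 °C, against 520.5, 607 and 636 CPM at 30 °C. In CPM the temperatures overlapped in both genotypes, and only WT 4 °C library 1 lay far above the rest. As a share of all gene counts, without TMM factors, every cold AdC3KO library was below those at 30 °C. These Cidec shares were 0.0550% to 0.0630% at 4 °C and 0.0657% to 0.0761% at 30 °C. The WT shares overlapped, at 0.0592% to 0.103% at 4 °C and 0.0631% to 0.0741% at 30 °C. Cidec was called higher in WT (log2 0.47, SE 0.19, adjusted p = 0.0421, edgeR) and not in AdC3KO (0.08, SE 0.19, adjusted p = 0.716). Without WT 4 °C library 1 the WT value was 0.19 (adjusted p = 0.173), and the call was also lost without any one of the 3 WT or 3 AdC3KO libraries at 30 °C or AdC3KO 4 °C libraries 1, 2 or 4 (0.40 to 0.54, adjusted p = 0.0511 to 0.145). It was kept in 7 of 22 alternatives. Upper-quartile scaling gave 0.23 in WT (adjusted p = 0.3). The AdC3KO value ran from −0.15 to 0.16 over the alternatives, without a call. Plin1, the droplet coat protein that activates Cidec, was high in the same library at 1667 CPM, against 1011 to 1218 CPM in the other WT libraries at 4 °C.

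Cideb (chr14:55754050-55758458, minus strand) had few counts, with 22 to 34 counts in AdC3KO and 20 to 40 counts in WT libraries at 4 °C, and 38 to 64 counts in AdC3KO and 19 to 54 counts in WT libraries at 30 °C. Its groups overlapped and its cold values were −0.52 in AdC3KO (SE 0.38, adjusted p = 0.244) and 0.24 in WT (SE 0.38, adjusted p = 0.613). Cideb shares 76.344% of its exon bases with Nop9 on the opposite strand, which had 15.2 to 16.7 CPM at 4 °C and 9.57 to 12.2 CPM at 30 °C. The strand setting of the counting is not given in the sources used here, so reads of both genes may not have been told apart.

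The balance between the abundant CIDE genes can be read within a library, where the scaling cancels. The ratio of Cidea to Cidec in CPM per kb was 3.99, 4.09, 3.92 and 4.00 in AdC3KO at 4 °C, against 2.37, 3.19, 3.54 and 3.82 in WT at 4 °C. At 30 °C it was 4.87, 4.64 and 6.26 in AdC3KO, against 6.32, 5.84 and 4.65 in WT. Every cold library of a genotype had a lower ratio than its 30 °C libraries. At 4 °C the AdC3KO libraries were all above the WT libraries, the closest being 3.92 and 3.82, and at 30 °C the genotypes overlapped. This ratio was chosen after its values had been seen and was not tested.

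**Figure D3:**
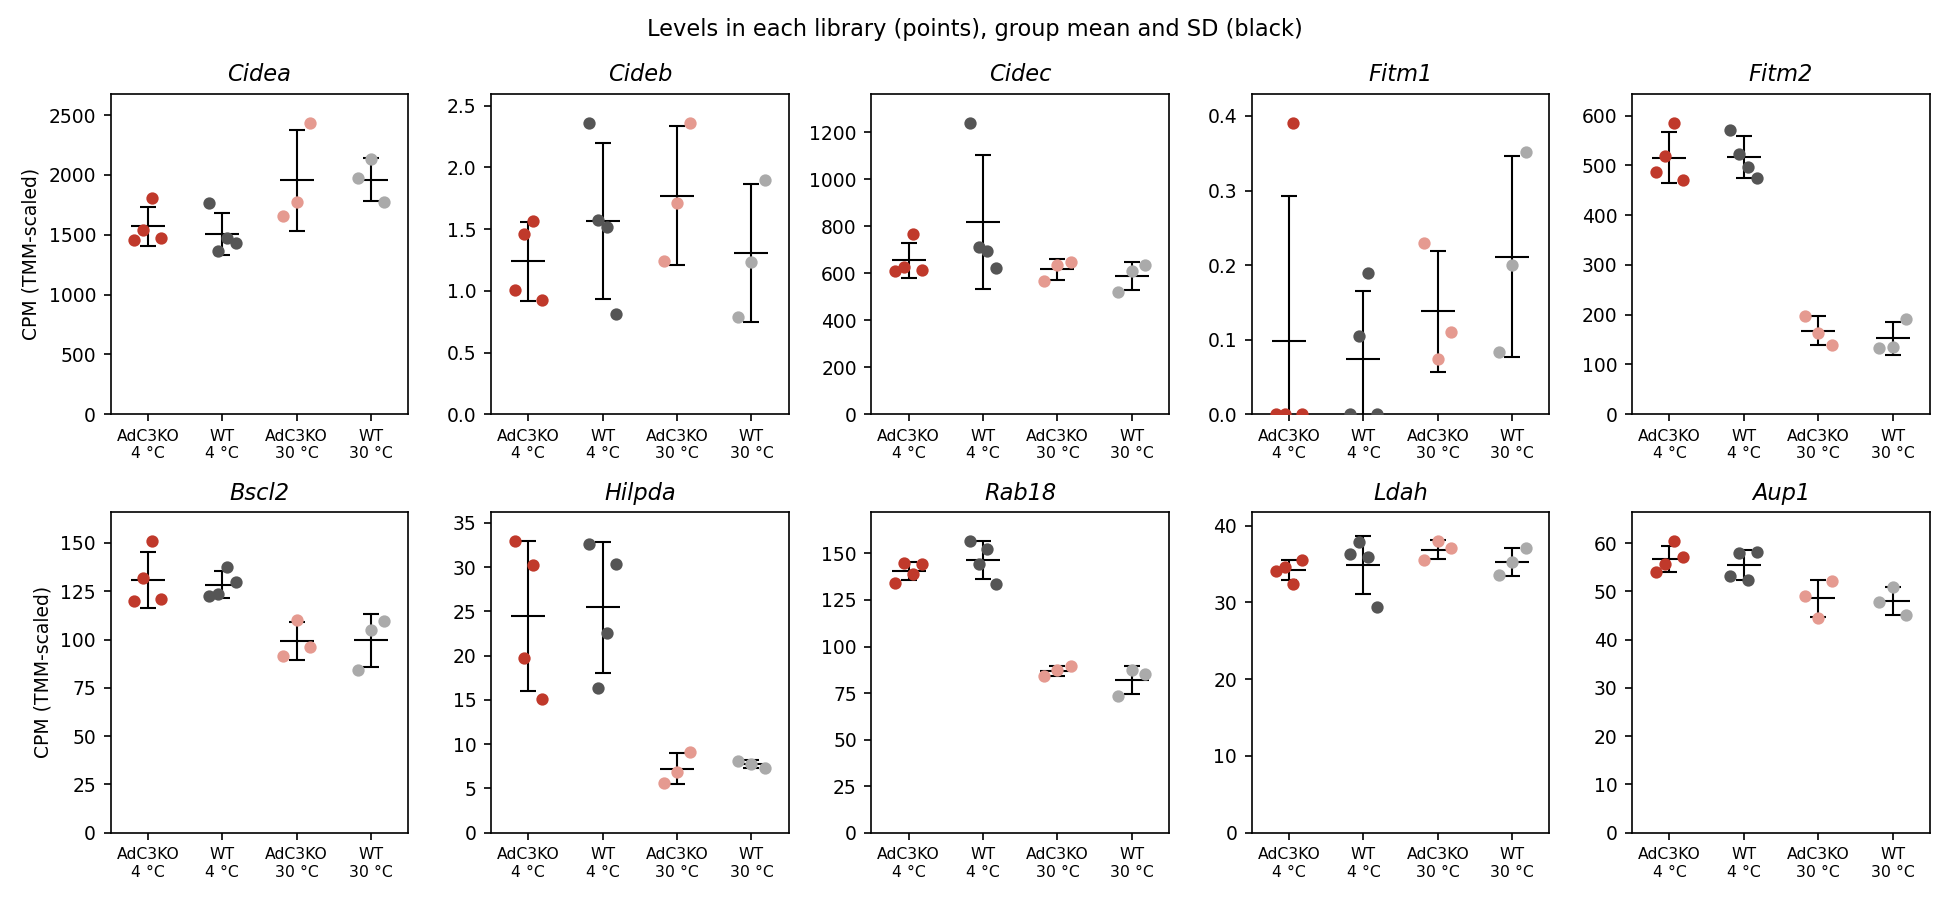
Level of each of the 10 genes in CPM on a linear axis that starts at 0, one point per library, with AdC3KO 4 °C, WT 4 °C, AdC3KO 30 °C and WT 30 °C from left to right and the group mean and SD in black. The cold libraries of Fitm2, Hilpda and Rab18 are separate from those at 30 °C, and 1 WT library of Cidec at 4 °C stands at 1239.8 CPM.

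Rab18, a small GTPase of the ER and droplet surface that recruits a tethering complex between them, varied little within a group and rose in both genotypes. It had 134, 145, 139 and 144 CPM in AdC3KO at 4 °C, against 84.2, 87.4 and 89.6 CPM in AdC3KO at 30 °C. In WT it had 157, 144, 152 and 133 CPM at 4 °C, against 73.3, 87.2 and 85.05 CPM at 30 °C. No cold library came near a 30 °C library. Rab18 rose 1.61-fold in AdC3KO (log2 0.69, SE 0.08, adjusted p = 2.16e-06) and 1.79-fold in WT (log2 0.84, SE 0.08, adjusted p = 2.69e-07, edgeR), and passed under all 22 alternatives in both. The gene is at chr18:6733905-6794429 on the plus strand, and 4.453% of its exon bases are shared with a transcript of the same strand.

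Aup1 and Ldah act on the droplet surface and changed little in CPM. Aup1 (chr6:83054521-83057808, plus strand), which brings the ubiquitin-conjugating enzyme Ube2g2 to droplets and the ER, had 54.0, 55.6, 60.4 and 57.0 CPM in AdC3KO at 4 °C, against 49.1, 44.5 and 52.1 CPM in AdC3KO at 30 °C. In WT it had 53.2, 58.0, 52.3 and 58.1 CPM at 4 °C, against 47.8, 51.0 and 45.2 CPM at 30 °C. In CPM the temperatures did not overlap. The closest libraries had 54.0 and 52.1 CPM in AdC3KO and 52.3 and 51.0 CPM in WT. As a share of all gene counts, without TMM factors, every cold AdC3KO library was below those at 30 °C. These shares were 0.00488% to 0.00517% at 4 °C and 0.00532% to 0.00579% at 30 °C. In WT the shares overlapped, at 0.00443% to 0.00554% at 4 °C and 0.00526% to 0.00579% at 30 °C. Aup1 was called higher in AdC3KO (log2 0.22, SE 0.08, adjusted p = 0.0248) and in WT (0.21, SE 0.08, adjusted p = 0.0378, edgeR). With upper-quartile scaling its sign turned (−0.01 in AdC3KO, adjusted p = 0.932, and −0.04 in WT, adjusted p = 0.723), while that scaling put the median of all tested genes at −0.29 in AdC3KO and −0.27 in WT. The AdC3KO call was lost in 6 of 22 alternatives, among them leaving out AdC3KO 30 °C library 2 (0.17, adjusted p = 0.135). The WT call was lost in 14 of 22, among them leaving out WT 30 °C library 1 or 3, WT 4 °C library 2 or 4 or any one AdC3KO library at 4 °C (0.17 to 0.21, adjusted p = 0.0511 to 0.147). Aup1 shares 22.985% of its exon bases with Htra2 on the other strand, which had 14.3 to 18.6 CPM at 4 °C and 19.8 to 23.98 CPM at 30 °C. Ldah (chr12:8208107-8285759, plus strand), a droplet hydrolase whose substrate is debated, lay between 32.5 and 35.6 CPM in AdC3KO and between 29.4 and 37.8 CPM in WT at 4 °C. At 30 °C it lay between 35.6 and 37.97 CPM in AdC3KO and between 33.5 and 37.1 CPM in WT. As a share of all gene counts, without TMM factors, every cold library was below those at 30 °C in both genotypes. The Ldah shares in AdC3KO were 0.00267% to 0.00323% at 4 °C and 0.00412% to 0.00454% at 30 °C. In WT they were 0.00280% to 0.00356% at 4 °C and 0.00389% to 0.00432% at 30 °C. In the edgeR fit Ldah was not called, with −0.11 in AdC3KO (95% interval −0.30 to 0.08, adjusted p = 0.308) and −0.02 in WT (−0.21 to 0.17, adjusted p = 0.875). Upper-quartile scaling called it lower in both genotypes (−0.34 in AdC3KO, adjusted p = 0.00381, and −0.26 in WT, adjusted p = 0.0214), near the median that scaling gave to all genes, and a filter at 5 CPM called it lower in AdC3KO (−0.20, adjusted p = 0.0417).

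**Figure D4:**
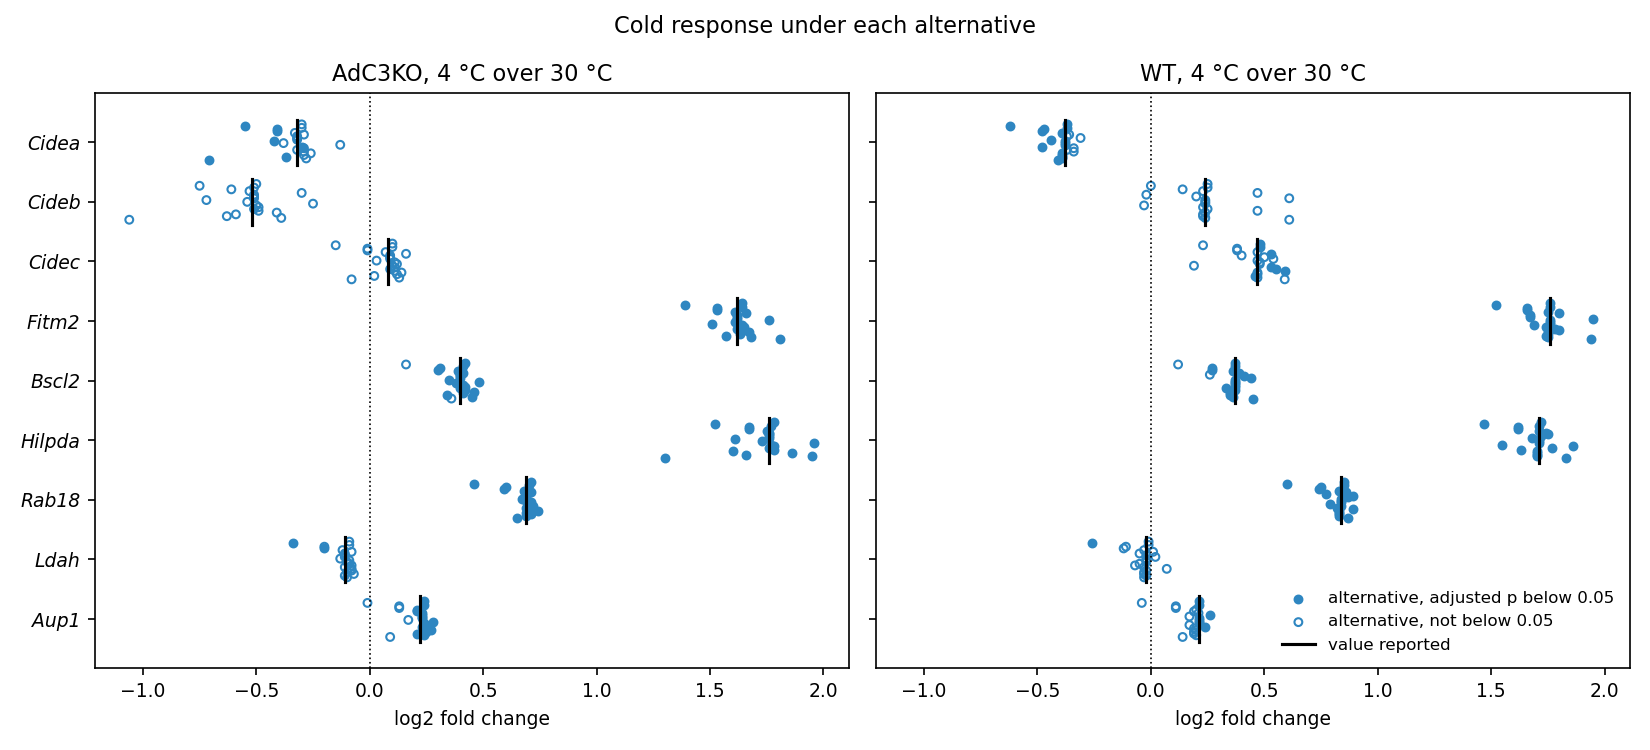
Log2 fold change at 4 °C over 30 °C for the 9 tested genes under each alternative (AdC3KO left, WT right), with a filled point where the adjusted p was below 0.05 and a black line at the value reported. Fitm2, Hilpda and Rab18 have filled points only, and Cidec in WT spreads from 0.19 to 0.59.

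Genes that work with these members are given next, against a background in which 31% of all tested genes were called higher and 32.1% lower in AdC3KO, and 30.6% higher and 30.8% lower in WT. Of 7 partners and regulators of CIDE fusion, 2 were higher and 2 lower in each genotype, a share no larger than that background. Abhd5, the lipase co-activator held by Plin1, rose by 2.10 in AdC3KO and 2.06 in WT on the log2 scale, and Rab8a, a GTPase with a part in Cidec-driven fusion, rose by 0.57 in AdC3KO and 0.38 in WT. Tbc1d4, a Rab8a regulator, fell, with log2 fold changes of −1.45 in AdC3KO and −1.51 in WT. Rabif (MSS4), another Rab8a regulator, also fell, with −0.63 in AdC3KO and −0.72 in WT. In the list of other droplet coat and enzyme genes, 13 of 32 tested were higher in each genotype and 9 in AdC3KO and 8 in WT were lower, which is near the 63% of all tested genes called in AdC3KO and 61.4% in WT. The droplet coat gene Plin2 rose by 3.84 in AdC3KO and 3.88 in WT, and the coat gene Plin3 fell, with −2.69 in AdC3KO and −2.42 in WT. The acyl-CoA synthetase Acsl1 rose by 1.81 in AdC3KO and 2.26 in WT, and Rdh10, a retinol dehydrogenase found on droplets, fell, with −1.60 in AdC3KO and −1.71 in WT.

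Triglyceride synthesis supplies the lipid that Fitm2 and seipin package, and 10 of its 17 genes were higher in each genotype, with 4 lower in AdC3KO and 3 in WT, beside 31% higher and 32.1% lower of all tested genes in AdC3KO and 30.6% and 30.8% in WT. Its last step is run by a pair of unrelated enzymes that moved apart. Dgat1, in the ER, rose by 2.27 in AdC3KO and 2.20 in WT, and Dgat2, which also sits on droplets, fell, with −3.09 in AdC3KO and −2.79 in WT. The first step rose with Dgat1, Gpat4 by 1.87 in AdC3KO and 2.03 in WT and Gpam by 1.89 in AdC3KO and 1.83 in WT. Tmem159, which encodes the seipin partner LDAF1 (promethin), fell, with −0.55 in AdC3KO (adjusted p = 0.0108) and −0.64 in WT, while Bscl2 was higher. The list median was 0.44 in both genotypes, beside −0.06 in AdC3KO and −0.03 in WT over all tested genes.

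Of the 9 genes of the Rab18 module, 6 were higher and 1 was lower in each genotype, where 63% of all tested genes were called in AdC3KO (31% higher) and 61.4% in WT (30.6% higher). The list median was 0.43 in AdC3KO and 0.47 in WT, beside −0.06 in AdC3KO and −0.03 in WT over all tested genes. Rab3gap1 and Rab3gap2, the complex that loads Rab18 with GTP, rose by 0.85 and 0.96 in AdC3KO and by 0.91 and 1.09 in WT, and Tbc1d20, which turns Rab18 off, rose by 1.30 in AdC3KO and 1.37 in WT. Rint1, a subunit of the tether, fell, with −0.45 in AdC3KO and −0.53 in WT. Of 13 genes of ER-associated degradation that act with Aup1, 10 were higher in each genotype, and 1 in AdC3KO and 0 in WT were lower, with a list median of 0.56 in AdC3KO and 0.63 in WT, to be read against the same shares and medians of all tested genes. Ube2g2, the enzyme that Aup1 binds, rose by 1.19 in both genotypes, Nploc4 by 1.77 in AdC3KO and 1.72 in WT and Ubxn4 by 1.66 in AdC3KO and 1.58 in WT. All fold changes in these lists are from the same edgeR fit, with adjusted p-values of at most 0.0108 for the genes named. The lists share genes (Abhd5 and Rab8a are in more than 1), and none was chosen without knowledge of earlier results.

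Markers of other cell types also differed between the temperatures, as did most tested genes (63% called in AdC3KO and 61.4% in WT). Macrophage markers summed to 261 to 445 CPM in AdC3KO and 320 to 660 CPM in WT at 4 °C, against 177 to 263 CPM in AdC3KO and 182 to 211 CPM in WT at 30 °C, and 5 of 12 in AdC3KO and 8 of 12 in WT were called higher. Endothelial markers summed to 1462 to 1771 CPM in AdC3KO and 1403 to 1527 CPM in WT at 4 °C, against 783 to 873 CPM in AdC3KO and 748 to 1016 CPM in WT at 30 °C, with 5 of 10 higher in each genotype and 3 in AdC3KO and 4 in WT lower. Markers of red blood cells summed to 496 to 622 CPM in AdC3KO and 326 to 599 CPM in WT at 4 °C, against 245 to 385 CPM in AdC3KO and 276 to 358 CPM in WT at 30 °C, with 5 of 5 higher in AdC3KO and 4 of 5 in WT. Brown adipocyte markers, led by Ucp1, had 5 of 10 higher in each genotype and 2 in AdC3KO and 3 in WT lower. The calls were 1 higher and 3 lower of 6 for white adipocytes in AdC3KO and 1 and 2 in WT, 1 and 1 of 10 for fibroblasts and preadipocytes in AdC3KO and 3 and 1 in WT, 0 and 4 of 8 for B and T cells in AdC3KO and 0 and 3 in WT, and 1 and 3 of 6 for Schwann cells in AdC3KO and 1 and 5 in WT. Although more of them were called lower than higher, white adipocyte markers summed to more in cold. Their sums at 4 °C were 1082 to 1253 CPM in AdC3KO and 814 to 1360 CPM in WT. At 30 °C they were 318 to 434 CPM in AdC3KO and 254 to 465 CPM in WT. None of 14 tested skeletal muscle genes was called. No macrophage, endothelial or red blood cell marker was at 0 throughout a group. The part of these cells in the rise of Fitm2, Hilpda, Rab18, Bscl2 and Aup1 was not tested.

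The knockout itself was not accompanied by a called change in any of these genes. At 4 °C, 0 of the 9 tested members were called between AdC3KO and WT, where 0.0502% of all tested genes were (0.0439% higher, 0.00627% lower). At 30 °C it was 0 of 9, where 0.0439% of all genes were called (0.0376% higher, 0.00627% lower). No member had an unadjusted p below 0.05 in either comparison, where 765 genes at 4 °C and 212 at 30 °C did, and DESeq2 called 22 and 8 genes and no member. The libraries of AdC3KO and WT overlapped for all 9 members at both temperatures, against groups that did not overlap for 2.27% of genes at 4 °C and 7.29% at 30 °C. The median log2 fold change of the members was −0.03 at 4 °C and 0.06 at 30 °C, beside −0.01 and 0.01 for all tested genes.

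How large a difference these libraries leave room for depends on the gene. At 4 °C the 95% interval of AdC3KO over WT was 0.86- to 1.26-fold for Cidea, 0.826- to 1.21-fold for Fitm2, 0.881- to 1.18-fold for Bscl2 and 0.858- to 1.07-fold for Rab18. For Aup1 it was 0.917- to 1.14-fold and for Ldah 0.867- to 1.11-fold. It was wider for Hilpda, at 0.66- to 1.40-fold, and for Cideb, at 0.471- to 1.35-fold. Cidec had the smallest unadjusted p of the members, 0.0865, with a log2 fold change of −0.32 (SE 0.17, adjusted p = 0.963, edgeR) and an interval of 0.618- to 1.04-fold. AdC3KO averaged 654 ± 75.7 CPM of Cidec and WT 817 ± 285 CPM (SD, n = 4 each), and without WT 4 °C library 1 the log2 difference was −0.03. At 30 °C the intervals were 0.801- to 1.24-fold for Cidea, 0.778- to 1.41-fold for Cidec and 0.879- to 1.36-fold for Fitm2, with AdC3KO means of 1955 ± 421, 617 ± 44.6 and 168 ± 29.3 CPM and WT means of 1961 ± 177, 588 ± 60.3 and 153 ± 33.1 CPM (SD, n = 3 each).

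Whether cold acted differently in AdC3KO and WT was tested as an interaction, the log2 response in AdC3KO less the one in WT. None of the 9 members was called, and 0% of all tested genes were; 349 genes had an unadjusted p below 0.05 in edgeR, no member among them, and DESeq2 called 0 genes with 454 below that level. On the log2 scale the difference was −0.13 for Fitm2 (95% interval −0.55 to 0.29), 0.05 for Hilpda (−0.81 to 0.90), −0.15 for Rab18 (−0.40 to 0.09), 0.03 for Bscl2 (−0.29 to 0.36) and 0.02 for Aup1 (−0.23 to 0.26). For the CIDE genes it was 0.06 for Cidea (−0.36 to 0.48), −0.39 for Cidec (−0.96 to 0.18) and −0.75 for Cideb (−1.90 to 0.39), and for Ldah −0.09 (−0.36 to 0.18). The call of Cidec and of Cidea in WT alone is therefore not shown to differ from AdC3KO. By genotype, no gene was called at either temperature among the 7 tested CIDE partners, 32 other droplet genes, 17 of triglyceride synthesis, 9 of the Rab18 module and 13 of ER-associated degradation.

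**Figure D5:**
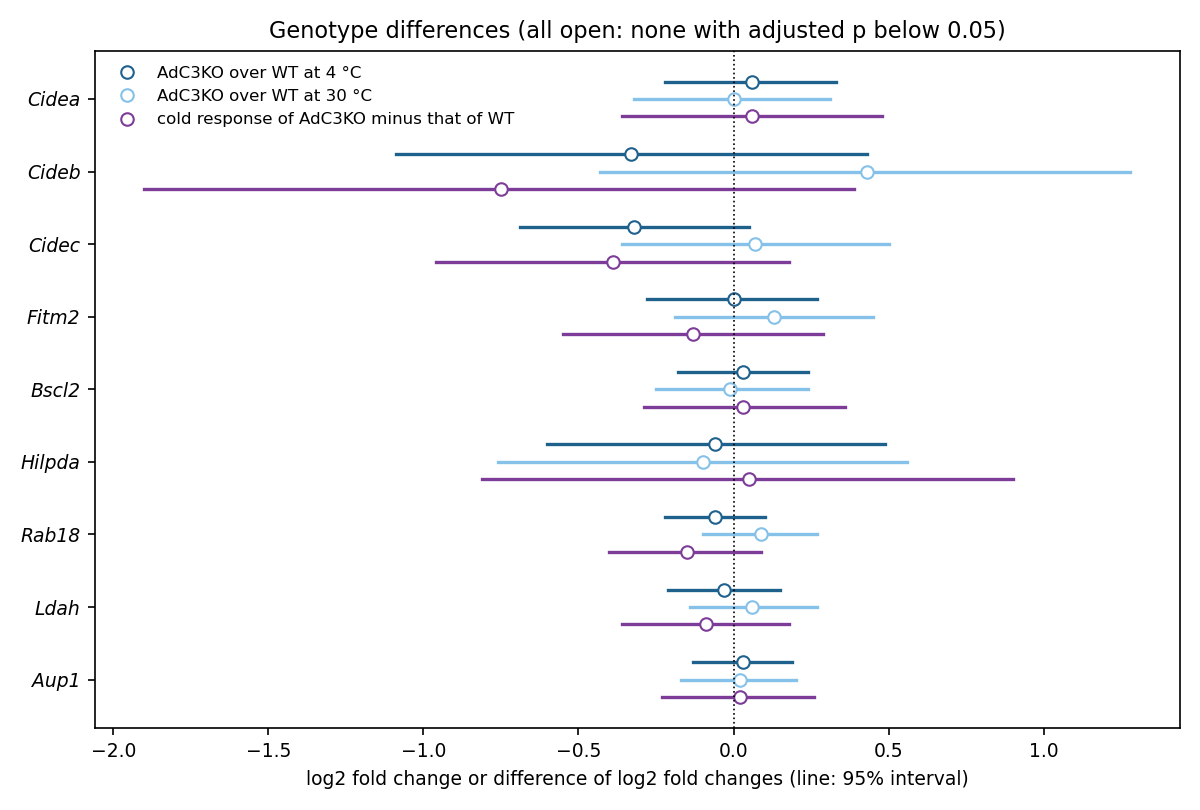
Log2 fold change of AdC3KO over WT at 4 °C and at 30 °C and the difference of the cold responses for the 9 tested genes, with 95% intervals as lines. Every interval crosses 0 and no adjusted p was below 0.05, and the intervals are widest for Cideb and narrow for Rab18 and Aup1.

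Within groups, the members could also be compared with other genes by how their libraries deviated from the group mean. Over the 14 libraries and among 9384 genes of at least 5 CPM, Pearson's r of these deviations was highest for Abhd11, Atp5c1 and Spag7 with Cidea (0.953, 0.953 and 0.95) and for Mtg1, Eci2 and Gabpa with Cidec (0.954, 0.954 and 0.944). For Fitm2 these genes were Slc4a4, Sun2 and Pdp2 (0.932, 0.931 and 0.915), for Rab18 Leo1, Pphln1 and Nmd3 (0.955, 0.929 and 0.906), for Hilpda Actb, Setd6 and Ctu2 (0.931, 0.904 and 0.896) and for Bscl2 Il11ra1, Rnase4 and Ubac2 (0.889, 0.884 and 0.861). Aup1 was closest to Atp6v1f, Slc38a9 and Card19 (0.855, 0.834 and 0.832), Ldah to Tank, Dnajb9 and Hspa4 (0.922, 0.913 and 0.897) and Cideb to Tbrg4, Ddx1 and Dnajc11 (0.934, 0.927 and 0.926). The members did not share a nearest gene. Slc4a4, Pphln1, Rnase4 and Card19 were also among the 3 closest to the same member when the group means were kept. These values describe the libraries, which share their scaling and dissection, and carry no test.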

How the data were processed

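RNA was sequenced from 14 brown fat libraries in 4 groups, placed by the genotype and temperature in the sample labels. Per the design text of the series and the labels' protocols, the authors extracted total RNA, had libraries made with a NEBNext Ultra II kit, trimmed reads with Trimmomatic, aligned them to GRCm38 with STAR and counted them per gene with HTSeq. The deposited values are whole-number counts per Ensembl gene, not normalised. Neither versions nor the strand setting, nor how multiply aligned reads were handled, are stated in these sources. Reads outside any gene made up 5.95% to 8.19% of a library and reads on more than 1 gene 5.53% to 6.03%, and these summary lines entered neither library sizes nor tests.

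Identifiers were matched to GENCODE M21 (GRCm38), which named 55230 of 55471 genes (99.57%). Counts were fitted with edgeR 4.0.16 in R 4.3.3 (filterByExpr at a minimum count of 10, TMM scaling, quasi-likelihood fit with robust estimation, 4 group means over all 14 libraries, common biological coefficient of variation 0.20). P-values of this fit were adjusted by the Benjamini-Hochberg method over 15949 genes, with calls at 0.05. Those of each alternative were adjusted over the genes it tested, from 10549 with a filter at 5 CPM to 30606 without a low-count filter. DESeq2 1.42.0 was an alternative. Standard errors and 95% intervals come from the fit, and counting intervals and limits cover counting error only, since the protocol names no molecular identifiers. Levels are CPM with TMM factors, and CPM per kb divides by all exon bases of a gene. Pairs of libraries within a group were compared by chi-square, which was 16.9 to 83.5 times its degrees of freedom, above sampling noise, so none was merged. The script was tested on simulated data.

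The members, the gene lists, the marker lists, the motifs and the tests were chosen with earlier results of these data known. The genes named are all 10 members in every comparison, up to 3 called genes a direction from each list (the largest in the WT cold response with a mean of at least 5 CPM) and the 3 genes most like each member. Markers numbered 5 to 15 a cell type, and Wdnm1-like of the white adipocyte list was not matched. The alternatives changed 1 choice at a time: scaling (RLE, upper quartile), DESeq2, no low-count filter, a filter at 5 CPM, only the compared groups, the replicate number as a block, each library left out, and the libraries with skeletal muscle transcripts left out (mean log2 CPM of the list above 0). Promoters came from RefSeq (GRCm38.p6), read from the table given for this work.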

Additional observations from a re-analysis of the deposited data

Results flagged for a closer look

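In each of the 20 sets of 4 cold libraries, formed by 10 genes and 2 genotypes, the highest and lowest library was compared with its neighbours by Dixon's criterion, which chance meets in about 1 in 20 such sets. It was met for Cidec in both genotypes and for Fitm1 in AdC3KO, where it had to be met, since any count in 1 library meets it when the other 3 libraries are at 0. Cidec stood at 766.71 CPM in AdC3KO 4 °C library 3, against 608 to 627 CPM in the other AdC3KO libraries at 4 °C, and that library also held 529 CPM of skeletal muscle transcripts. Cidec stood at 1239.75 CPM in WT 4 °C library 1, against 622 to 713 CPM in the other WT libraries at 4 °C. In CPM the same library was the highest of its group for Plin1, Cidea, Cideb, Fitm2, Hilpda and Rab18. That library also had the lowest TMM factor of its group (0.834). As a share of all gene counts, without TMM factors, it was not the highest for Fitm2, Hilpda or Rab18. Fitm1 stood at 0.391 CPM (8 counts) in AdC3KO 4 °C library 3, where the other 3 libraries of the group had 0 counts.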

How the results depend on the processing

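Of 976 values of single members under the alternatives, 855 kept their sign and their side of the threshold, 43 lost a call, 10 gained one, 66 changed sign without being called and 2 changed sign from a called value. The 2 were Aup1 under upper-quartile scaling, −0.01 in AdC3KO and −0.04 in WT. That scaling put the median of all tested genes at −0.29 in AdC3KO and −0.27 in WT, against −0.06 and −0.03 with TMM. Under it the calls over all genes were 3737 higher and 6542 lower in AdC3KO and 3640 and 6415 in WT, against 4937 and 5113 and 4879 and 4908 with TMM, and those of members 3 higher and 2 lower in each genotype, against 5 and 0 in AdC3KO and 6 and 1 in WT. Counts of members called in cold ran from 4 to 6 in AdC3KO and from 3 to 7 in WT over all alternatives, and from 4 to 6 and from 3 to 6 when 1 library was left out, the 3 being without WT 30 °C library 1. No member was called by genotype or in the interaction under any alternative run. With DESeq2 the counts were 5 in AdC3KO and 7 in WT, as with edgeR. The cause of these changes was not tested.

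Same-numbered libraries seldom deviated alike. Of 19 same-numbered pairs across groups, 1 had deviations correlated above 0.1 (range −0.34 to 0.30, median −0.048, and 0.034 for pairs with other numbers). The highest r of any pair was 0.541, between WT 4 °C library 4 and AdC3KO 4 °C library 1. Such correlations cannot show whether libraries of the same number were handled together, which was not tested. With the replicate number as a block, 4 members were called in AdC3KO and 5 in WT in cold, 0 by genotype at either temperature and 0 in the interaction. Cideb rests on 19 to 64 counts a library and Fitm1 on 0 to 10, so depth limits both.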
